A study of Mus musculus with 18 samples.

Results

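The genes described here are 10 cyclins and cell-cycle regulators of mouse thymocytes: the D-type cyclins Ccnd2 and Ccnd3, their kinase Cdk6, the E-type cyclins Ccne1 and Ccne2, the kinase inhibitors Cdkn1a and Cdkn1b, the retinoblastoma gene Rb1, and the transcription factors E2f1 and E2f2. They were taken by name, and each chimeric read on the gene's strand inside its RefSeq span (GRCm38.p6) was counted as the gene's. All 10 were found, among 17405 genes with at least 1 read on their strand, and they held 5741 of the 1190995 chimeric reads in the 12 libraries analysed. The study used miR-eCLIP, in which RNA is crosslinked to protein by ultraviolet light, Argonaute 2 (Ago2) is immunoprecipitated with its RNA, and each miRNA is joined by ligation to the RNA it sits on, so that a chimeric read names both the miRNA and the place of contact. Thymocytes came from mice aged 6 weeks, either C57BL/6 (wild type) or B6.Mirc14tm1.1Ankr, in which the Mir181a-1 and Mir181b-1 genes are deleted in the whole animal (knockout). Each genotype gave 3 libraries from the Ago2 immunoprecipitate (Ago2 IP) and 3 from material enriched for miR-181. The 6 input libraries were not analysed here. The thymocytes were total cells, not sorted by stage, and nothing in the labels says how many mice stand behind a sample, so the p-values measure the spread between these samples, which may in part be technical.

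D-type cyclins bind Cdk4 or Cdk6 and phosphorylate the retinoblastoma protein, which frees E2F factors to switch on genes for DNA replication, among them the E-type cyclins, which act with Cdk2. Cdkn1b (p27Kip1) and Cdkn1a (p21Cip1) hold these kinases in check. In the thymus, Ccnd3 and Cdk6 are known for the expansion of early thymocytes after the pre-T-cell receptor signals, and Cdkn1b for holding resting cells out of the cycle. miR-181a is abundant in thymocytes and is known for setting their sensitivity to antigen receptor signals. A second gene cluster also encodes miR-181a and miR-181b, and yet another encodes miR-181c and miR-181d, so mature miR-181 is reduced but not absent in the knockout.

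The mature miRNAs on which the results turn are shown because a shared seed, bases 2 to 8 from the 5′ end, defines the families used below. Sequences are those of RefSeq (GRCm38.p6), 5′ to 3′, with the seed in capitals.
miR-181a-5p: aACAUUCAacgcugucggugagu
miR-181b-5p: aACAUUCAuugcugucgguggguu
miR-181c-5p: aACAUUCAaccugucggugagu
miR-181d-5p: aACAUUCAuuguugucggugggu
miR-142a-3p: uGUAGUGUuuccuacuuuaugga
let-7a-5p: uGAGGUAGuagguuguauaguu
miR-16-5p: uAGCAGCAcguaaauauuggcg
miR-17-5p: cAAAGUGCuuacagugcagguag
miR-20a-5p: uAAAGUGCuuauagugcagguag
miR-130b-3p: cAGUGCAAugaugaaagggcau
miR-301a-3p: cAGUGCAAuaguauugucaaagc
miR-19b-3p: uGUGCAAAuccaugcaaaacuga
miR-221-3p: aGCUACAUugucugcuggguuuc
miR-222-3p: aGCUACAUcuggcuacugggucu
The 4 members of miR-181-5p have the same seed and differ only after it. miR-17-5p and miR-20a-5p share a seed and are counted together with miR-93 and miR-106, and miR-130b-3p and miR-301a-3p share another. The last pair is shown because miR-221 and miR-222 are textbook regulators of Cdkn1b. These libraries held 118 chimeras of miR-221-3p and 16 of miR-222-3p, and none of either lay on any of the 10 genes. Of all 1190995 chimeras, 5741 lay on the 10 genes and 2101 on Cdkn1b. Counts of 118 and 16 are therefore too small for their absence to be informative.

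Libraries held between 6832 and 293149 chimeric reads, and values are given as chimeric reads per 1000000 chimeric reads of the library (rpm). The deletion was visible in every library. miR-181-5p made up 30.1% to 32.3% of chimeras in the wild-type Ago2 IP and 1.32% to 1.44% in the knockout, and 98.8% to 99.2% and 70.5% to 72.6% in the enriched libraries of the wild type and the knockout. Knockout enriched libraries were the shallowest, at 12186, 19264 and 6832 reads, and their libraries 2 and 3 were not shown to differ from each other (chi-square test of counts over 150 genes, p = 0.172), as all other pairs of replicates were. Their chi-square per degree of freedom, 1.109, lay within that of the 3 knockout Ago2 IP pairs (1.09 to 1.16). It lay below that of the other pairs of their own group (1.37 and 1.48) and of the wild-type enriched pairs (1.32 to 2.21). These values do not settle whether the libraries are separate samples. They were kept as 2 samples, with the alternative of 1 sample given below. Between 14 and 16 of 16 T-lineage marker genes had reads in each group, summing to 18471 to 21782 rpm per library, while Cd1d1 was at 0 in 3 groups and Ptcra, of early thymocytes, in both knockout groups. Summed markers of B cells, myeloid cells, thymic epithelium, erythroid cells and fibroblasts reached at most 146 rpm, and that value rests on 1 read. Chimeric reads depend on the level of the RNA as well as on its contact with Ago2, and fewer cells expressing a gene cannot be told apart from less RNA or less contact per cell.

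In GRCm38 and with their NCBI gene identifiers, the D-type cyclins were Ccnd2 (12444, chr6:127125162-127152188, minus strand) and Ccnd3 (12445, chr17:47505051-47599689, plus strand), and Cdk6 (12571) lay at chr5:3341004-3531008 on the plus strand. The inhibitors were Cdkn1a (12575, chr17:29090979-29100722, plus) and Cdkn1b (12576, chr6:134920401-134925525, plus). The E-type cyclins were Ccne1 (12447, chr7:38097984-38107490, minus) and Ccne2 (12448, chr4:11190433-11204779, plus). Rb1 (19645) lay at chr14:73192858-73325951 on the minus strand, E2f1 (13555) at chr2:154559400-154569892 on the minus strand and E2f2 (242705) at chr4:136172274-136196057 on the plus strand. Strands of Ccnd2, Ccne2 and Rb1 were taken from the strand with most reads outside overlapping genes, a rule that matched the promoter table in 99.1% of 3084 genes.

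Contacts were spread unevenly over the 10 genes. Per kilobase of gene span, introns included, Cdkn1b held 410 reads over the 12 libraries and Ccnd3 27.6. Ccnd2 followed with 8.51 reads per kilobase, Ccne2 with 4.88, E2f2 with 3.66, Ccne1 with 3.37, Cdk6 with 1.95, Rb1 with 1.71, E2f1 with 0.953 and Cdkn1a with 0.205. Of the 5741 reads, 1339 came from the wild-type Ago2 IP, 976 from the knockout Ago2 IP, 3256 from the wild-type enriched and 170 from the knockout enriched libraries. miR-181-5p accounted for 3778 of them, and 80 seed families were seen in all.

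**Figure D1:**
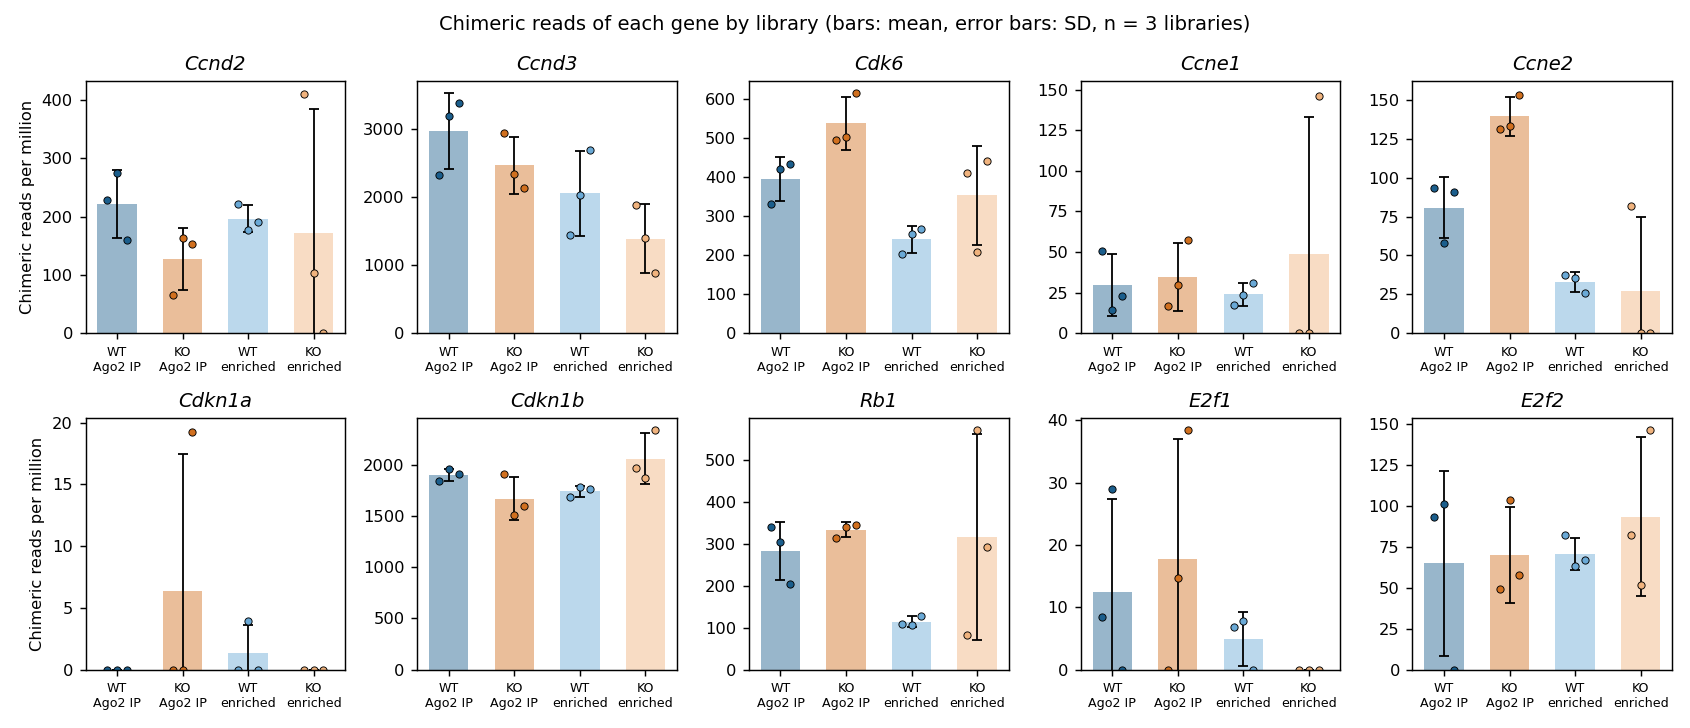
Level in rpm (y axis, from 0, a separate scale for each gene) in each library of the 4 groups, for the 10 genes. Points are libraries, bars are means and error bars are SD over 3 libraries; Ccnd3 and Cdkn1b stand at 878 rpm or more in every library, and Ccnd2, Ccne1, Ccne2, Cdkn1a, E2f1 and E2f2 each have at least 1 library at 0.

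Ccnd3, the D-type cyclin of proliferating thymocytes, gave 275, 221 and 149 chimeras in wild-type Ago2 IP and 179, 158 and 111 in knockout Ago2 IP. That is 2333, 3199 and 3388 rpm against 2945, 2336 and 2131 rpm, ranges that overlap. The wild-type mean was 2974 rpm ± 562 (SD, n = 3) and the knockout mean 2470.4 ± 423. The miRNA partners differed more than the totals. miR-181-5p chimeras on Ccnd3 fell from 560.0, 811 and 887 rpm to 32.9, 29.6 and 19.2 rpm, while chimeras of all other miRNAs stood at 2221 ± 392 rpm against 2443 ± 417 rpm. An rpm value counts against all chimeras of the library, so the rpm of other miRNAs also carries the lower miR-181-5p share of the knockout libraries.

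Cdkn1b, the p27 inhibitor, gave 217, 135 and 84 chimeras in wild-type Ago2 IP and 116, 102 and 83 in knockout Ago2 IP, or 1841, 1954 and 1909.8 rpm against 1908, 1508 and 1593 rpm. These ranges overlap as well, with means of 1902 ± 57.0 and 1669.8 ± 211 rpm (SD, n = 3). Its miR-181-5p chimeras fell from 721, 898 and 864 rpm to 32.9, 59.1 and 57.6 rpm. Chimeras of other miRNAs were at 1074 ± 40.1 rpm against 1619.9 ± 225 rpm.

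Cdk6, the partner kinase of D-type cyclins, was the one gene of the 5 tested whose Ago2 IP libraries did not overlap between genotypes (25.9% of the 1613 genes tested, 417, had libraries that did not overlap, and 10.04% were called). It stood at 331, 420 and 432 rpm in the wild type and at 494, 503 and 614 rpm in the knockout. Reads were 39, 29 and 19 against 30, 34 and 32. Its miR-181-5p chimeras, too few to test, numbered 25 in the wild type (12, 7 and 6) and 4 in the knockout (2, 0 and 2).

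Ccnd2, the second D-type cyclin, gave 27, 19 and 7 chimeras in wild-type Ago2 IP and 4, 11 and 8 in knockout Ago2 IP, or 229, 275 and 159 rpm against 65.8, 163 and 154 rpm. The lowest wild-type library lay just below the highest knockout library. None of its 23 knockout reads was a miR-181-5p chimera, which allows a share of up to 14.3% (upper bound of the 95% Wilson interval), against 23 of 53 in the wild type.

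Rb1, which encodes the retinoblastoma protein, had 40, 21 and 9 wild-type reads and 19, 23 and 18 knockout reads in the Ago2 IP, or 339, 304 and 205 rpm against 313, 340.0 and 345 rpm. The ranges overlap, and 14 wild-type reads against 1 knockout read were miR-181-5p chimeras. Of the reads in its span, 228 were on the minus strand. On the plus strand of the same span 323 reads were found, 312 of them inside Lpar6, a receptor gene nested in Rb1 on the other strand (chr14:73237891-73240358), and these were not counted.

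None of the 5 genes that passed the filter on low counts was called between genotypes in the Ago2 IP, where 10.04% of the 1613 genes tested were called (162), 6.63% lower and 3.41% higher in the knockout. The log2 fold change (knockout over wild type) was -0.25 (SE 0.13) for Ccnd3 and -0.21 (SE 0.14) for Cdkn1b, with adjusted p of 0.236 and 0.383 in edgeR's quasi-likelihood test with Benjamini-Hochberg adjustment over all genes tested. Ccnd2 had a log2 fold change of -0.86 (SE 0.36, adjusted p 0.125), Cdk6 of 0.46 (SE 0.23, adjusted p 0.209) and Rb1 of 0.12 (SE 0.26, adjusted p 0.843). With DESeq2 57 genes in all were called, 5 of them higher in the knockout, and none of these 5. Ccnd3 passed the threshold without wild-type library 1 (log2 fold change -0.44, adjusted p 0.0178), the deepest of the group, and in none of the other alternatives tried.

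Ccne1, Ccne2, Cdkn1a, E2f1 and E2f2 were too sparse to test between genotypes. Ccne2, an E-type cyclin, had 11, 4 and 4 wild-type reads and 8, 9 and 8 knockout reads in the Ago2 IP, or 93.3, 57.9 and 90.9 rpm against 132, 133 and 154 rpm. These values do not overlap but rest on 19 and 25 reads, and the gene was not among those behind the 25.9% above. E2f2 had 11, 7 and 0 reads against 3, 7 and 3, and Ccne1 had 6, 1 and 1 against 1, 2 and 3. E2f1 had 3 reads in each group. Cdkn1a, the p21 inhibitor induced by p53, had no read in the wild-type Ago2 IP, which allows up to 12.99 rpm over the group (3 reads), 1 read in the knockout and 2 reads in all 12 libraries.

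The miR-181-5p share of a gene's own chimeras can be set against other genes within the same libraries. In the wild-type Ago2 IP it was 43.4% for Ccnd2 (95% Wilson interval 31.0% to 56.7%) and 42.4% for Cdkn1b (37.9% to 47.1%). It was 28.7% for Cdk6 (20.3% to 39.0%), 24.96% for Ccnd3 (21.8% to 28.4%) and 20.0% for Rb1 (12.3% to 30.8%). Over the 1050 genes with at least 50 reads in these libraries, the median share was 28.6% and the quartiles 21.9% and 36.8%. Cdkn1b stood above 85.1% of those genes and Ccnd2 above 86.4%, Cdk6 near the middle at 50.7%, and Ccnd3 and Rb1 above 35.3% and 19.1%. By library, Cdkn1b lay between 39.2% and 45.9% and Ccnd3 between 24% and 26.2%, so these genes did not overlap in any library, whereas Ccnd2 ranged from 26.3% to 71.4% on few reads. Intervals cover counting error only and take repeats, reads of 1 library with the same position, strand and miRNA, as separate reads. In the wild-type Ago2 IP repeats made up 35.6% of Cdkn1b reads, 3.41% of Ccnd3 reads and 0% for Ccnd2, Cdk6 and Rb1. Counted once, 108 of the 185 miR-181-5p reads on Cdkn1b remained, and its standing among the genes was not computed that way. In the knockout the share was 2.99% for Cdkn1b (1.58% to 5.58%), 1.12% for Ccnd3 (0.478% to 2.59%) and 4.17% for Cdk6 (1.63% to 10.2%).

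**Figure D2:**
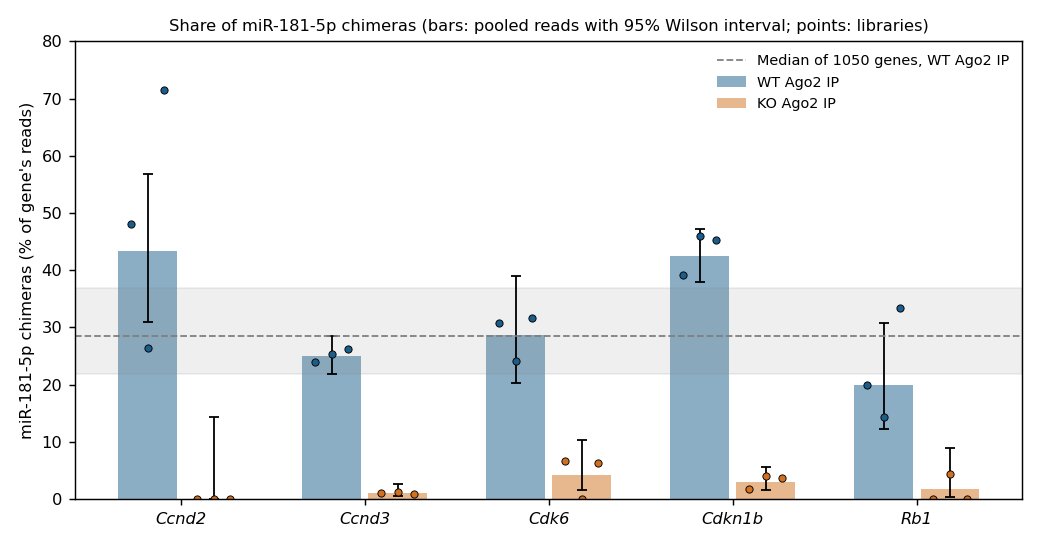
Percentage of each gene's chimeric reads that named miR-181-5p (y axis) in the wild-type and knockout Ago2 IP, for the 5 genes tested between genotypes. Bars are the reads of 3 libraries pooled, error bars 95% Wilson intervals and points single libraries; the dashed line and grey band are the median of 28.6% and the quartiles over 1050 genes, and Ccnd2 and Cdkn1b lie above the band while the highest knockout bar is at 4.17%.

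Resolved by miRNA family, contacts of Cdkn1b were mostly with 2 families. In the wild-type Ago2 IP miR-142a-3p, a miRNA of blood cells, gave 190 of its 436 reads and miR-181-5p 185, at 839 ± 109 and 828 ± 93.6 rpm (SD, n = 3). In the knockout miR-142a-3p gave 227 of 301 reads, at 1257 ± 237 rpm. Its libraries stood at 823, 738 and 955 rpm in the wild type and at 1529.9, 1109 and 1132 rpm in the knockout, without overlap. Of the 579 tested pairs of a gene with a family other than miR-181, 38.9% (225) likewise stood higher in the knockout without overlap and 1.73% (10) lower. Called by the test were 32.8% of all pairs, mostly those of miR-181. let-7 followed with 82.9 ± 32.4 and 64.3 ± 25.2 rpm, and the miR-17 family with 64.7 ± 16.8 and 107 ± 53.0 rpm, and miR-148/miR-152 with 22.1 ± 31.3 and 38.2 ± 24.5 rpm, all with overlapping libraries.

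Ccnd3 met a wider set. In the wild-type Ago2 IP miR-181-5p gave 161 reads and miR-142a-3p 158, followed by the miR-17 family with 70, let-7 with 54, miR-15/16 with 50 and miR-130/301 with 32. The miR-17 family stood at 238, 333 and 432 rpm in the wild type and at 230.3, 148 and 230.3 rpm in the knockout. miR-130/301 stood at 127, 116 and 205 rpm and at 214, 222 and 307 rpm. Neither pair of ranges overlaps, though the gap is narrow in both, and the first lies higher in the wild type and the second higher in the knockout, the directions of the 1.73% and the 38.9% of tested pairs given above. miR-142a-3p, let-7 and miR-15/16 overlapped between genotypes, at 678 ± 61.2 against 781 ± 286 rpm, 274 ± 135 against 345 ± 103 rpm, and 215 ± 67.3 against 224 ± 46.5 rpm.

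Of the gene and family pairs tested between genotypes in the Ago2 IP, 32.8% of 786 were called, 27.5% lower (216) and 5.34% higher (42) in the knockout. Among the 8 pairs of these genes that passed the filter, 3 were called, all lower in the knockout. Ccnd3 with miR-181-5p fell by 4.95 on the log2 scale (SE 0.38, adjusted p 4.19e-10 in edgeR's quasi-likelihood test) and Cdkn1b with miR-181-5p fell by 4.33 (SE 0.31, adjusted p 2.54e-10). Both lie near the median of -4.82 over the 207 miR-181 pairs tested, of which 205 were called lower. Ccnd3 with the miR-17 family fell by 0.98 (SE 0.30, adjusted p 0.0132), where 11 of 579 pairs without miR-181 were called lower and 42 higher. That call was lost with library sizes alone as the scaling (-0.62, adjusted p 0.0935), which moved the median of all pairs by 0.36 and gave 186 higher and 208 lower calls, without the filter (adjusted p 0.351), and without wild-type library 3 or knockout library 2 (adjusted p 0.0511 and 0.0804).

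The other 5 pairs were not called: Cdkn1b with miR-142a-3p had a log2 fold change of 0.25 (SE 0.19, adjusted p 0.395), Ccnd3 with miR-130/301 of 0.44 (SE 0.32, adjusted p 0.363), Ccnd3 with miR-15/16 of -0.29, with let-7 of 0.16 and with miR-142a-3p of -0.15. The first of these was called with library sizes alone (0.60, adjusted p 0.0102), as was the second (0.80, adjusted p 0.0456). Over the 370 pairs of miR-142a-3p tested, the median log2 fold change was 0.19, close to that of Cdkn1b. For Cdk6 no family passed the filter. Of its 4 families other than miR-181 with at least 10 Ago2 IP reads, 3 had libraries that did not overlap and were higher in the knockout, as were 17.6% of the 6321 such pairs of all genes (1.95% were lower without overlap). miR-142a-3p stood at 82.0 ± 17.3 against 170 ± 32.6 rpm, let-7 at 38.9 ± 27.2 against 126 ± 49.6 rpm, and miR-15/16 at 24.96 ± 29.8 against 72.2 ± 5.69 rpm, while the miR-17 family overlapped at 42.9 ± 16.4 against 59.9 ± 21.9 rpm.

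The other genes met few families often. Rb1 had 24 wild-type and 18 knockout Ago2 IP reads of miR-142a-3p, 13 and 14 of let-7, and 6 and 10 of the miR-17 family. Ccnd2 had 8 and 3 reads of miR-142a-3p and 6 and 4 of miR-15/16, and Ccne2 10 and 9 of miR-142a-3p. All of these overlapped in rpm between genotypes. Counting only chimeras of miRNAs outside the miR-181 family, with their own library totals, the log2 fold change was 0.40 for Cdk6 (SE 0.26, adjusted p 0.549), 0.06 for Cdkn1b (SE 0.15, adjusted p 0.928), -0.32 for Ccnd3 (SE 0.12, adjusted p 0.123) and -0.08 for Rb1 (SE 0.28, adjusted p 0.954), none called.

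**Figure D3:**
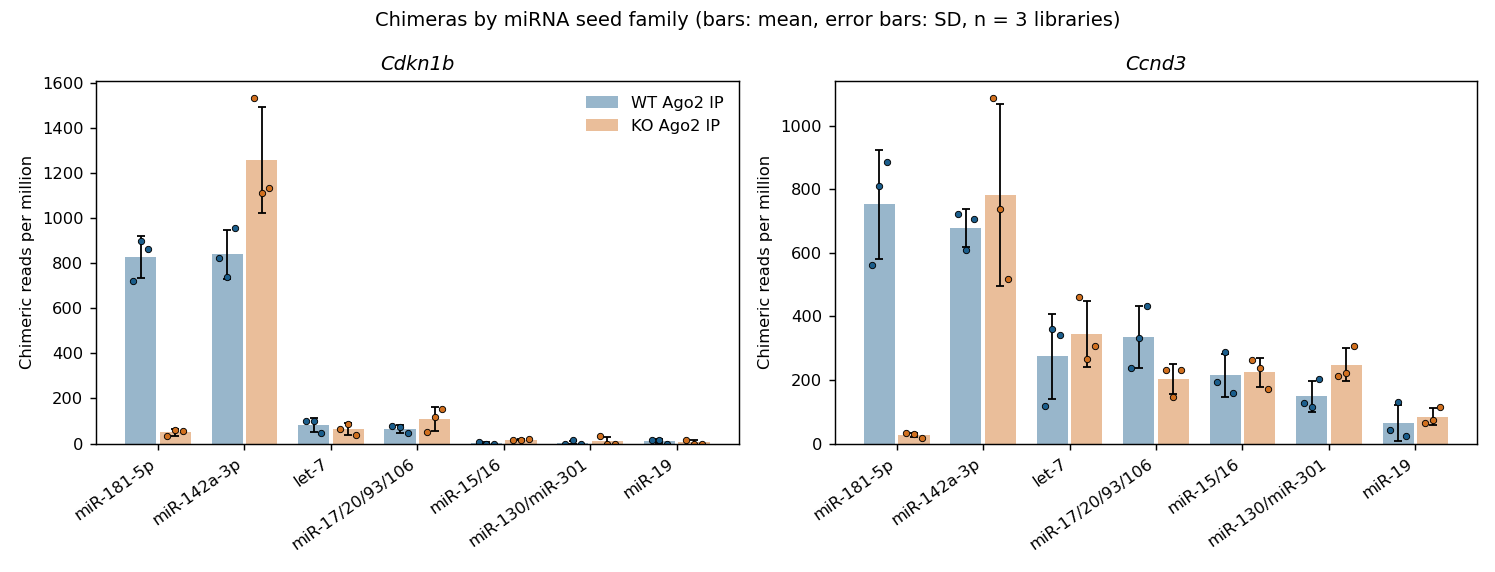
Level in rpm (y axis, from 0) by miRNA seed family in the Ago2 IP, for Cdkn1b (left) and Ccnd3 (right). Bars are means, error bars SD and points the 3 libraries of each genotype; miR-181-5p on both genes is at 59.1 rpm or less in every knockout library, and miR-142a-3p on Cdkn1b is at 1109 rpm or more in the knockout and at 955 rpm or less in the wild type.

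The contacts of Cdkn1b were gathered at one place. Of its 2101 reads, 1889 (89.9%) lay in a cluster of 259 nt on the plus strand at chr6:134924175-134924433 (GRCm38), whose centre is 1221 nt upstream of the gene's 3′ end. Exon and UTR annotation was not used here, and positions are given against the RefSeq span. In the wild-type Ago2 IP the cluster held 199, 124 and 78 reads, 1752 ± 56.3 rpm, of which 42.9% named miR-181-5p. In the knockout it held 107, 84 and 72 reads, 1461 ± 268 rpm, of which 3.42% did. The knockout enriched libraries gave 22, 33 and 15 reads there, and it was the single site among the 10 genes with at least 3 reads in each library of that group.

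Within this cluster the 2 main families did not sit alike. miR-181-5p had 1387 reads, 232 of them at the single position chr6:134924318 and 73.4% within 10 nt of it. Its median lay at that position in the wild-type Ago2 IP (172 reads) and in the wild-type enriched libraries (1144 reads), and 1 nt downstream in the knockout Ago2 IP (9 reads). miR-142a-3p had 395 reads with the most frequent position 51 nt downstream, at chr6:134924369. That position held 15 wild-type and 23 knockout Ago2 IP reads of this miRNA, and a smaller peak 2 nt downstream of the miR-181 position held 13 and 21. Its median distance from the miR-181 position was 27 nt in the wild type (176 reads) and 35 nt in the knockout (205 reads), and 18.8% and 23.4% of its reads lay within 10 nt of that position, against 68.0% of miR-181-5p reads of the wild type. Of the miR-142a-3p reads, 58.0% in the knockout and 54.0% in the wild type lay at least 25 nt downstream. The 31 reads of the miR-17 family lay mostly between these peaks, with the median at chr6:134924342. Repeats, meaning reads of 1 library with the same position, strand and miRNA, made up 62.4% of the cluster's reads over 173 positions, so the heights of single positions are less certain than their places.

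**Figure D4:**
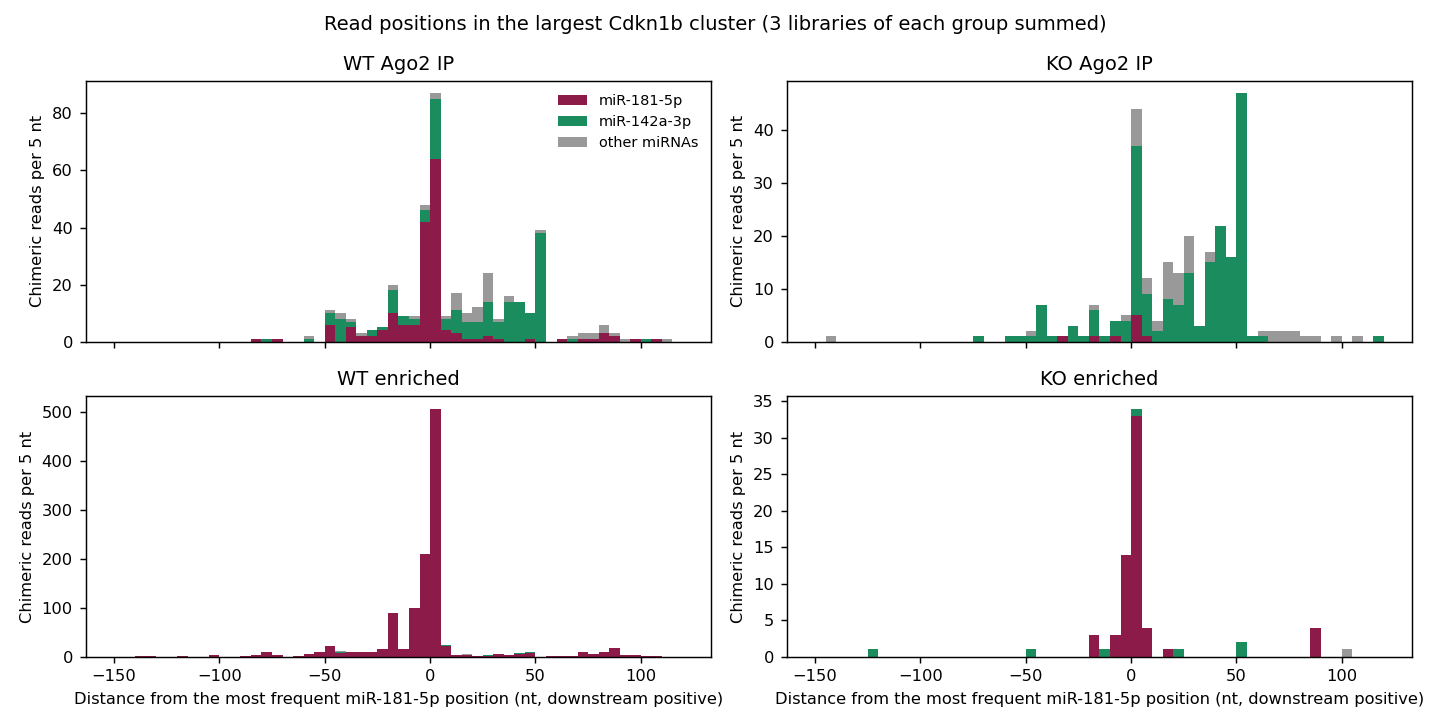
Chimeric reads per 5 nt (y axis, from 0, a separate scale for each group) by distance in nt from the most frequent miR-181-5p position in the largest Cdkn1b cluster (x axis, downstream positive), with the 3 libraries of each group summed. Colours stack miR-181-5p, miR-142a-3p and all other miRNAs; the miR-181-5p reads gather near 0, few in the knockout Ago2 IP (9 reads), and miR-142a-3p peaks 51 nt downstream in both Ago2 IP groups.

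As a whole, the cluster was called lower in the knockout Ago2 IP, with a log2 fold change of -0.40 (SE 0.16, adjusted p 0.0412 in edgeR's quasi-likelihood test), where 36.3% of 251 clusters tested were called, 25.5% lower (64) and 10.8% higher (27). The call is at the edge of the threshold: it was lost with library sizes alone (-0.26, adjusted p 0.180; this scaling moved the median of all clusters by 0.14 and gave 41 higher and 63 lower calls), with DESeq2 (adjusted p 0.142), without the filter (adjusted p 0.481), and without wild-type library 1 or 2 or knockout library 2 or 3 (adjusted p 0.0635, 0.0678, 0.295 and 0.125). Cdkn1b had 3 smaller reproducible sites. Those at chr6:134921956-134922077 and chr6:134922925-134922990 were made of miR-181-5p by 92.8% and 100%, with 69 and 21 reads, and met the rule in the wild-type enriched libraries alone, where nearly all reads of the gene name miR-181-5p. The third, at chr6:134925183-134925254, held 21 reads, 11 of them in the knockout Ago2 IP, where none was of miR-181-5p.

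Ccnd3 was different in kind: its reads were scattered over 613 clusters along a span of 94639 nt (chr17:47505051-47599689), and 393 of these held a single read. The last 3000 nt of the span, 3.17% of its length, held 21.1% of the other miRNAs' reads in the wild-type Ago2 IP (102 of 484; Wilson interval 17.7% to 24.9%) but 3.11% of the miR-181-5p reads (5 of 161; 1.33% to 7.06%). In the knockout the other miRNAs had 27.3% of 443 reads there (23.4% to 31.6%). Across 645 genes with spans of at least 10000 nt and at least 20 reads of each class in the wild-type Ago2 IP, the median share in this window was 8.75% for miR-181-5p and 11.1% for other miRNAs, with miR-181-5p lower in 302 genes and higher in 282.

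The promoter table gives Ccnd3 a second start at chr17:47593467, 6222 nt from the 3′ end of the span. Upstream of it lay 96.3% of miR-181-5p reads in the wild-type Ago2 IP (155 of 161; Wilson interval 92.1% to 98.3%) and 77.3% of other reads (374 of 484; 73.3% to 80.8%). The wild-type enriched libraries gave 95.2% for miR-181-5p (1368 of 1437; 94.0% to 96.2%).

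Sites with at least 3 reads in each library of a group numbered 18 on Ccnd3, and 17 of them lay upstream of the second start. The rule was met by 15 of them in the wild-type enriched libraries, by 7 in the wild-type Ago2 IP and by 3 in the knockout Ago2 IP. At 14 of the 18, miR-181-5p made up at least 90% of reads. All 14 met the rule in the enriched libraries and were picked by their miR-181-5p share, so their make-up and their excess in the wild type follow from that choice and are a description. These sites lay 11126 to 92700 nt from the 3′ end, and they held 96 wild-type Ago2 IP reads (80 of miR-181-5p) and 14 knockout Ago2 IP reads (1 of miR-181-5p). The largest, chr17:47584971-47585111, held 186 reads, 96.2% of them miR-181-5p, of which 23 were at the single position chr17:47585106. Sites of similar make-up at chr17:47557393-47557583, chr17:47543915-47544081 and chr17:47529260-47529371 held 129, 116 and 107 reads. chr17:47524005-47524058 and chr17:47586098-47586249 held 71 each, and chr17:47517600-47517691 and chr17:47548400-47548530 held 59 and 46. The smallest were chr17:47588542-47588584 (31 reads), chr17:47583151-47583301 (27), chr17:47510961-47511014 (26), chr17:47572517-47572525 (20), chr17:47506972-47507006 (18) and chr17:47517537-47517579 (12).

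The 4 remaining Ccnd3 sites belonged mainly to other families. The one nearest the 3′ end, chr17:47598821-47598939, held 70 miR-142a-3p and 69 miR-130/301 reads of 168, with most frequent positions 2 nt apart, and only 6 of miR-181-5p. Its Ago2 IP reads were 38, 22 and 14 for the wild type and 25, 31 and 29 for the knockout, 319.8 ± 2.34 against 475 ± 74.2 rpm, and was not called (log2 fold change 0.41, SE 0.26, adjusted p 0.236). Its miR-130/301 reads made up 27 of the family's 32 wild-type reads on Ccnd3 and 41 of 44 in the knockout. Upstream, chr17:47529831-47530077 held 31 miR-15/16, 22 miR-181-5p and 19 miR-19 reads, chr17:47540135-47540290 held 26 let-7 reads of 46, and chr17:47535077-47535163 held 33 miR-142a-3p reads of 40. The first of these was tested and not called (log2 fold change -0.16, SE 0.38, adjusted p 0.755).

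**Figure D5:**
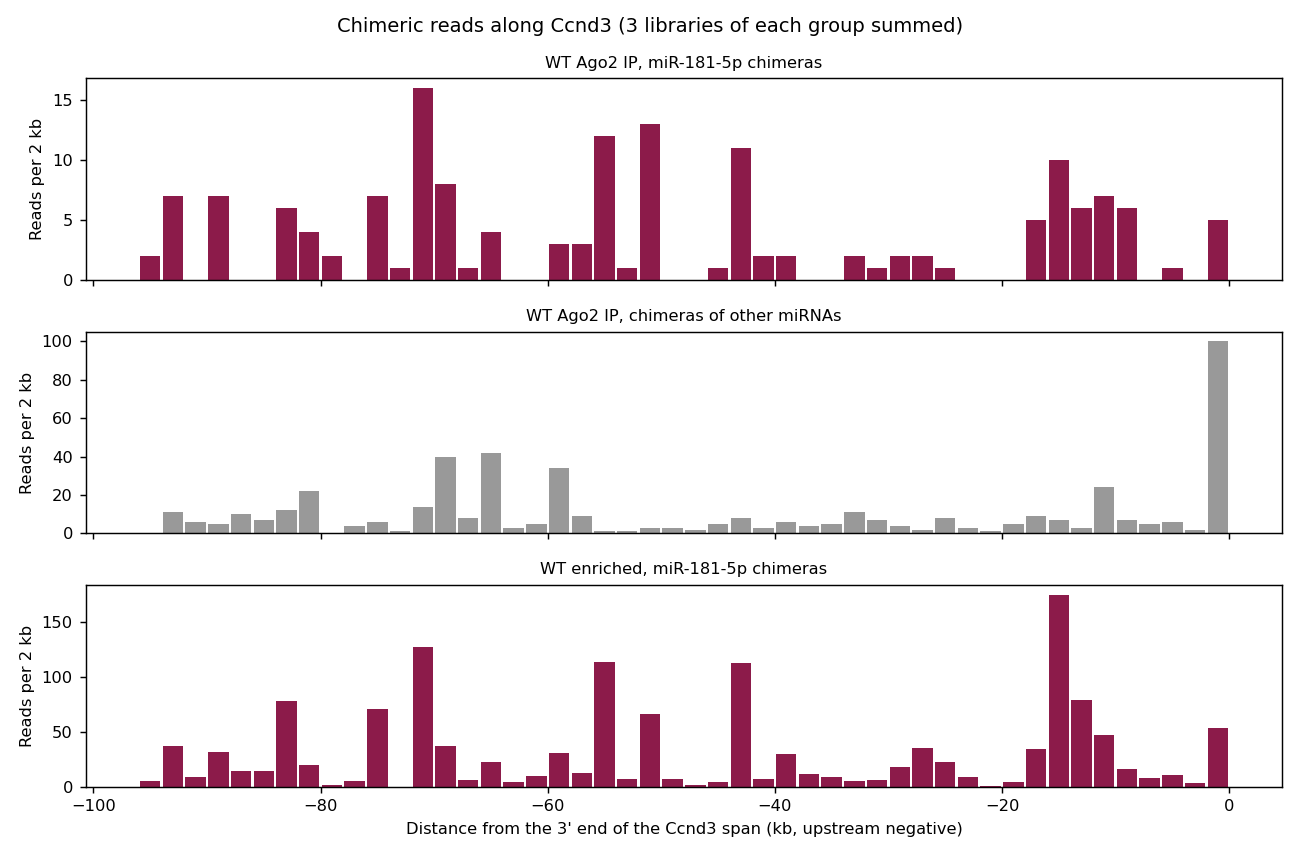
Chimeric reads per 2 kb (y axis, from 0, a separate scale in each panel) by distance from the 3′ end of the Ccnd3 span in kb (x axis, upstream negative), with the 3 libraries of each group summed. In the wild-type Ago2 IP the last bin holds the most reads of other miRNAs but few of miR-181-5p. The tallest miR-181-5p bins of the wild-type enriched libraries lie upstream, more than 10 kb from the end. They hold up to 175 reads, and the last bin holds 54, more than most bins.

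The remaining genes had few reproducible sites. Ccnd2 had 3 on the minus strand of chromosome 6, at chr6:127129686-127129741, chr6:127139106-127139233 and chr6:127146111-127146137. They held 34, 34 and 16 reads, 100%, 91.2% and 87.5% of them miR-181-5p, and lay 4552, 14008 and 20962 nt from the gene's 3′ end. All 3 met the rule in the wild-type enriched libraries alone, where 99.3% of Ccnd2 reads name miR-181-5p, so these shares restate the selection of those libraries. The same holds for the sites of Cdk6 and E2f2. Cdk6 had 1, chr5:3355182-3355251, with 47 reads of which 95.7% were miR-181-5p, 40 of them in the wild-type enriched libraries. E2f2, an activating E2F factor, had 1, chr4:136184444-136184505, with 29 reads, all of miR-181-5p and 25 from the wild-type enriched libraries. Ccne1, Ccne2, Cdkn1a, E2f1 and Rb1 had no site that met this rule. The largest cluster of Ccne2, chr4:11197181-11197222, held 12 reads, all of miR-181-5p and 11 of them from the wild-type enriched libraries. That of Ccne1, chr7:38097985-38098019, held 7 reads, at the very 3′ end of the gene. The largest of Rb1, chr14:73212987-73213039, held 15 reads, mostly of let-7 (8) and miR-142a-3p (5). E2f1 had 2 reads at the single position chr2:154560367, 967 nt from its 3′ end, and Cdkn1a 1 read at chr17:29099768, 954 nt from its own.

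The enriched libraries ask which genes miR-181 touched when its chimeras were selected. In the wild type, Ccnd3 had 422, 514 and 526 reads and Cdkn1b 493, 451 and 344, 98.3% and 99.0% of them miR-181-5p. Cdkn1b stood at 1682, 1779 and 1767 rpm, below each of its Ago2 IP libraries, and Ccnd3 at 1440, 2028 and 2703 rpm, overlapping its Ago2 IP. Rb1 had 32, 27 and 25 reads, or 109, 107 and 128 rpm, against 205 to 339 rpm in the Ago2 IP, without overlap. Cdk6 stood at 201, 252 and 267 rpm, also below each of its Ago2 IP libraries. With Cdkn1b these were 3 of the 6 genes tested, where 53.4% of all 3135 genes did not overlap between the kinds of library and 36.6% were called. Ccnd2 stood at 222, 178 and 190.1 rpm.

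Against the wild-type Ago2 IP, 36.6% of 3135 genes were called, 20.2% higher (633) and 16.4% lower (515) in the enriched libraries, and 1 of the 6 genes tested here was. Rb1 was lower, with a log2 fold change of -1.001 (SE 0.25, adjusted p 0.00158 in edgeR's quasi-likelihood test), a call that was lost without wild-type Ago2 IP library 1 (-0.83, adjusted p 0.0579). Both sides counted reads of all miRNAs. miR-181-5p made up 98.8% to 99.2% of chimeras in the enriched libraries and 30.1% to 32.3% in the Ago2 IP. On Rb1 it made up 20.0% of the Ago2 IP reads, and the part of that share in this call was not tested. Ccnd2, Ccnd3, Cdk6, Cdkn1b and E2f2 were not called, with log2 fold changes of 0.18, -0.15, -0.30, 0.26 and 0.27. With library sizes alone as the scaling, which moved the median of all genes by -0.38 and gave 390 higher and 1074 lower calls, Ccnd3 (-0.52, adjusted p 0.00484) and Cdk6 (-0.68, adjusted p 0.00750) were called as well. Repeats made up 70.3% of the Cdkn1b reads in these libraries. With each repeat counted once, Cdkn1b turned from 0.26 to -0.78 (adjusted p 2.63e-06), and with library sizes alone it was at -0.12, so the sign depends on the processing. Without the filter it was called higher (0.44, adjusted p 0.0170), and each of the other genes tested moved up as well.

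In the knockout enriched libraries the counts were small: Ccnd3 had 23, 27 and 6 reads, Cdkn1b 24, 36 and 16, Cdk6 5, 4 and 3, Ccnd2 5, 2 and 0, and Rb1 1, 11 and 2. Cdkn1b stood at 1969, 1869 and 2342 rpm and Ccnd3 at 1887, 1402 and 878 rpm. Between genotypes 5.52% of 2138 genes were called in the enriched libraries, 2.10% higher (45) and 3.41% lower (73) in the knockout, and none of the 5 genes tested here was. Library sizes alone moved the median of all genes by 0.29 and turned that split to 82 higher and 34 lower. The log2 fold change was -0.79 for Ccnd3 (SE 0.28, adjusted p 0.127), 1.37 for Rb1 (SE 0.50, adjusted p 0.137), -0.40 for Ccnd2, 0.12 for Cdk6 and -0.10 for Cdkn1b (adjusted p 0.824). The Rb1 value rests on library 2, which held 11 of its 14 knockout reads. Without that library it was -0.23 (adjusted p 0.913), and with both strands counted, Lpar6 included, it was called (1.48, adjusted p 0.0339). Ccnd3 was called without the filter (-1.40, adjusted p 3.52e-09) and without wild-type library 1 (-0.86, adjusted p 0.00591). The rpm of Cdkn1b did not overlap and was higher in the knockout (28.5% of the genes tested did not overlap in either direction). Its log2 fold change turned to 0.84 with repeats counted once (adjusted p 0.0388) and was at 0.20 with library sizes alone. Cdkn1b was called lower without the filter (-0.72, adjusted p 0.0130). In that fit each of the 5 values lay below its value in the main fit, with Ccnd2 at -1.01 and Cdk6 at -0.50. Rb1, at 0.76, was still higher in the knockout. The scaling factors of the fit without the filter were also computed without it, and their part in these calls was not tested.

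Between the knockout's enriched and Ago2 IP libraries 20.8% of 826 genes were called, 15.7% higher (130) and 5.08% lower (42), and none of the 4 genes tested here was. Library sizes alone moved the median by -0.17 and gave 123 higher and 99 lower calls. Ccnd3 had a log2 fold change of -0.59 (SE 0.22, adjusted p 0.0513). It was called in 6 of 13 alternatives, among them library sizes alone (-0.76, adjusted p 0.00854) and the omission of each knockout Ago2 IP library in turn (adjusted p from 0.000131 to 0.0271). Cdkn1b had a log2 fold change of 0.42 (adjusted p 0.155), Cdk6 of -0.59 and Rb1 of 0.30. These comparisons share libraries with those above, so their values are not separate evidence. The difference of the 2 enrichments was tested for 5 of the genes in one fit of all 12 libraries, in which 49 of 2062 genes were called and none of the 5.

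The miR-181 paralogs did not appear in equal parts. Over all chimeras of the wild-type Ago2 IP miR-181b-5p made up 22.4% ± 0.380 (SD, n = 3) of miR-181-5p reads. On Cdkn1b it made up 8.24%, 11.3% and 13.2% in the 3 libraries, lower than the whole library in each, and on Ccnd3 18.2%, 21.4% and 12.8%. In the wild-type enriched libraries miR-181b-5p made up 18.5% ± 1.51 of all miR-181-5p reads, 4.32%, 4.45% and 6.76% of those on Cdkn1b and 15.2%, 18.4% and 19.5% of those on Ccnd3. With repeats counted once the gap was smaller: the miR-181b-5p share on Cdkn1b in the enriched libraries was 15.4% ± 3.46, against 19.7% ± 1.69 over all reads. In the knockout enriched libraries 39 of 67 miR-181-5p reads on Cdkn1b named miR-181a-5p, 22 miR-181c-5p, 3 miR-181b-5p and 3 miR-181d-5p. The miR-181c-5p share of 32.8% (Wilson interval 22.8% to 44.7%) compares with 22.2% over all reads of these libraries and 13.5% on Ccnd3 (5 of 37, interval 5.91% to 28.0%). Repeats made up 36.8% of the Cdkn1b reads in these libraries, and the miR-181c-5p share was not computed with repeats counted once.

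Among 55 other cell-cycle genes, 11 passed the filter between genotypes in the Ago2 IP, where 1 rose and 1 fell. Of all 1613 genes tested there, 3.41% were called higher and 6.63% lower. The median log2 fold change of the 11 was 0.05, beside 0.02 over all genes tested and -0.21 over the 5 genes described above. Ccng2, an atypical cyclin linked to cell-cycle exit, fell from 696 ± 164 to 217 ± 113 rpm (SD, n = 3; log2 fold change -1.67, SE 0.26, adjusted p 2.49e-06 in edgeR's quasi-likelihood test). E2f8, a repressive E2F factor, rose from 62.0 ± 34.4 to 191 ± 39.4 rpm (1.44, SE 0.46, adjusted p 0.0312), on 16 wild-type and 35 knockout reads. In the wild-type enriched libraries against the Ago2 IP, 17 of the 55 were tested and 6 were called, a share close to the 36.6% of all genes. Cdk7 (1.85) and Rbl2 (1.08), the kinase that activates other cyclin-dependent kinases and a relative of Rb1, were higher. Wee1 (-2.53), Ccng2 (-1.05), Rbl1 (-0.93) and E2f4 (-0.88) were lower (adjusted p 6.53e-05 and 0.000689, and from 8.42e-06 to 0.0319). None of the 10 tested between genotypes in the enriched libraries was called (5.52% of all genes tested were). Nor was any of the 3 tested between the knockout's kinds of library (20.8% of all genes tested were).

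Of the genes outside the set with at least 100 reads, those most like Ccnd3 over the 12 libraries (Pearson correlation of log2 of rpm plus 1, among 2420 genes) were Usp3 (0.923), Elmo1 (0.899) and Ssbp2 (0.885). Their group means fell in the same order as those of Ccnd3, highest in the wild-type Ago2 IP and lowest in the knockout enriched libraries. The correlation is a description: the 12 points share their kind of library and its depth.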

How the data were processed

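miR-eCLIP libraries of mouse thymocytes were analysed from lists of chimeric reads deposited per library and strand. Each line is 1 read, deposited by the authors as a count of 1 at a position 1 nt wide with its miRNA and strand. Which base of the read the position marks was not stated in the labels. The submitters' processing notes name STAR 2.7.10, Bowtie2 2.4.5, UMI-tools 1.1.1, SAMtools 1.11 and bedtools 2.30.0 and the builds mm10 and GRCm38.p6, with no role or order. Repeats at the same position with the same miRNA, 3.24% to 34.1% of a library, were kept, with single counting as an alternative.

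Reads were assigned to RefSeq gene spans (GRCm38.p6) by strand and joined into clusters where positions lay at most 20 nt apart. A site is a cluster that reached 3 reads in every library of at least 1 group. miRNAs were grouped by seed where a RefSeq sequence matched, which 288 of 374 names had (98.7% of reads). Counts per gene, gene and family pair, and cluster were tested over all features with edgeR 4.0.16 (R 4.3.3), with its quasi-likelihood F test, TMM factors on all chimeric reads, filterByExpr (minimum count 10) and Benjamini-Hochberg adjustment, and a call at an adjusted p of at most 0.05. Log2 fold changes come from that fit, and its SE is the fold change over the root of F. Alternatives were DESeq2 1.42.0, library sizes alone, no filter, repeats once, both strands, 50 nt joining, miRNA names, other miRNAs only, the replicate number as a block, libraries 2 and 3 of the knockout enriched group as 1 sample, and leaving out each library. Counts of miR-181 chimeras only and the fit of all 12 libraries were added after seeing the data. The edgeR steps were tested on simulated counts. Intervals are 95% Wilson intervals (scipy 1.17.1).

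The 10 genes and the gene lists were chosen with earlier results of these data known. All 10 were named, with every site and with each gene's largest cluster, up to 5 families per gene with at least 10 Ago2 IP reads, and every called gene of the 55 other cell-cycle genes. miR-130/301 and miR-19 on Ccnd3, miR-17 on the Cdkn1b cluster, miR-221 and the miR-181 paralog shares were chosen after their values were seen. Replicate numbers were not used to pair the samples in the main fits. Correlations of deviations between samples of the same number ran from -0.10 to 0.13. Between the 2 kinds of library of a genotype all were positive, from 0.005 to 0.10, which does not exclude a pairing. The 6 input libraries, exon annotation and target-site sequence were not used.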

Additional observations from a re-analysis of the deposited data

How the results depend on the processing

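Of the 362 values of single genes, pairs and sites under the alternatives, 332 kept their direction or stayed uncalled, 16 became called, 12 lost their call and 2 reversed, both for Cdkn1b with repeats counted once: 0.84 for the knockout against the wild type in the enriched libraries and -0.78 for the wild-type enrichment. The causes were not tested. Between genotypes in the Ago2 IP, 162 genes were called, 57 (5 higher) with DESeq2, 32 of 1393 with other miRNAs only and 7 of 82 with miR-181 chimeras only. In the enriched libraries the 118 calls became 74 with DESeq2 (37 higher), 300 of 15341 without the filter, 4 of 9 with other miRNAs only, 54 with miR-181 chimeras only (28 higher), 98 with knockout libraries 2 and 3 as 1 sample, and 59 to 103 leaving out 1 library. The wild-type enrichment had 1148 calls and 680 with DESeq2. The knockout enrichment had 172, 290 without the filter (120 higher) and 103 to 203 leaving out 1 library, the lowest without knockout enriched library 2. Pairs had 258 calls, 394 with library sizes alone, 1390 of 83571 without the filter and 211 lower with 11 higher with DESeq2, and clusters 91 and 206 of 248449 without the filter. In the fit with the replicate number as a block the counts were 134, 55, 1253, 131 higher with 50 lower, 238 and 90 in the same order. Whether the numbers pair the samples is not known, and that block called Ccnd3 in the knockout enrichment (adjusted p 0.0163) and kept the Cdkn1b cluster (0.0183). Counts of 0 among the genes described here stand beside 369, 409 and 257 genes at an unadjusted p under 0.05 in the 3 comparisons without such a call. Depth limits the knockout enriched group, where 3 reads equal 78.4 rpm.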
